A study of Mus musculus with 15 samples.

Results

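Hematopoietic niche cytokines are the secreted and membrane-bound factors with which stromal and endothelial cells of the bone marrow (BM) hold and feed blood-forming cells. The set held 10 genes, chosen by name: Kitl, Cxcl12, Csf1, Il7, Il6, Lif, Flt3l, Il11, Il15 and Il34. Rows for 9 of these 10 genes were found among the 44674 genes of the count table, and Flt3l, which encodes a growth factor for early lymphoid and dendritic cell progenitors, was not analysed here. All 9 passed the filter on low counts, which left 19401 genes for testing. In the marrow, stem cell factor (the product of Kitl) and the chemokine Cxcl12 are made mainly by perivascular mesenchymal cells and endothelial cells (ECs). Stem cell factor acts through the receptor Kit, Cxcl12 retains stem cells through Cxcr4, Csf1 and Il34 share the macrophage receptor Csf1r, and Il6, Lif and Il11 all signal through the common chain Il6st (gp130).

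The study compared cultured BMECs (BM endothelial cells) with and without a surface marker, and asked, among other questions, how well each sustains blood progenitors in the presence or absence of stem cell factor. Bulk RNA-seq was available for 15 libraries in 8 conditions, all labelled WT, from mice of 4 to 6 months. Tie2-CreERT2;Rosa26-tdTomato mice, in which tamoxifen switches on the red reporter under the promoter of the endothelial receptor Tie2, gave all groups but one. Their whole BM was cultured in endothelial medium, and CD45- tdTomato+ cells were sorted at passage P0 into cells with endomucin, a sialomucin of venous and sinusoidal ECs (P0 Emcn+), and cells without it (P0 Emcn-). Emcn- BMECs were then passaged to P1, P2, P3 and P4. Lung cultures of the same mouse line gave the Emcn- lung cells. The marrow mesenchymal stromal cells (MSC) came from Osx-Cre;Rosa26-tdTomato mice, whose Cre is driven by the osteolineage gene Osx, and were grown in a mesenchymal medium. In 7 conditions there were 2 libraries, made from cultures of different animals, and P4 had 1. The labels name 4 batches. The study's methods name different sequencing instruments for different batches of replicates, and do not match them to these labels. Batch d held the first replicates of lung and of both P0 populations, and batch a their second replicates. Batch b held the first replicates of P1, P2 and P3 together with P4, and batch c the second replicates of P1, P2 and P3 together with MSC. For MSC or passaged cells against P0 or lung cells, batch and condition therefore cannot be told apart, and neither can the medium in the case of MSC.

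Library depth ranged from 9914620 to 39718807 counts, so levels are given as CPM, the counts of a gene scaled to a common library total. The cell type labels were checked against marker genes. Endothelial markers (Cdh5, Pecam1, Tek, Kdr, Egfl7, Erg, Esam and Cldn5) summed to between 9195 and 11117 CPM in the P0 Emcn+ libraries, but to between 40.3 and 441 CPM in all other libraries, including those labelled BMEC or lung. The 8 mesenchymal markers (Col1a1, Col1a2, Pdgfra, Pdgfrb, Lum, Dcn, Prrx1 and Twist1) went the other way, with sums of 199.6 to 237 CPM in P0 Emcn+ cells and 3921 to 16734 CPM elsewhere. No endothelial marker was at 0 in a whole group except Cldn5 in the P4 library. The 8 macrophage and blood markers were Ptprc, Adgre1, Cd68, Lyz2, Itgam, Cd14, Mrc1 and C1qa. They summed to between 801 and 965 CPM in P0 Emcn+, between 239.9 and 272 CPM in P0 Emcn- and between 12.1 and 245 CPM in the remaining libraries. Emcn itself ranged from 631 to 798 CPM in the libraries labelled Emcn+, from 2.52 to 12.7 CPM in P0 Emcn-, and from 32.6 to 125 CPM in lung. In bulk samples such as these, fewer cells of a type and less RNA per cell cannot be told apart. The part of these marker differences in the cytokine results below was not tested.

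The transcripts of 3 members dominated. Divided by the longest coding transcript of each gene, the levels of Csf1, Cxcl12 and Kitl were the highest of the 9 in all 8 conditions, and the same held with the median transcript length. Csf1 ranked first in 6 conditions and Cxcl12 in P0 Emcn- and MSC. The order between P0 Emcn- Csf1 and Cxcl12 depended on the length used: Cxcl12 led with 391 against 266 CPM per kb by the longest transcript, and Csf1 led with 758 against 702 CPM per kb by the median one. By the median length Kitl also stood above Cxcl12 in P2, P3 and P4. The plot of member levels by library shows that Kitl, Cxcl12 and Csf1 each followed another order across the conditions.

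**Figure D1:**
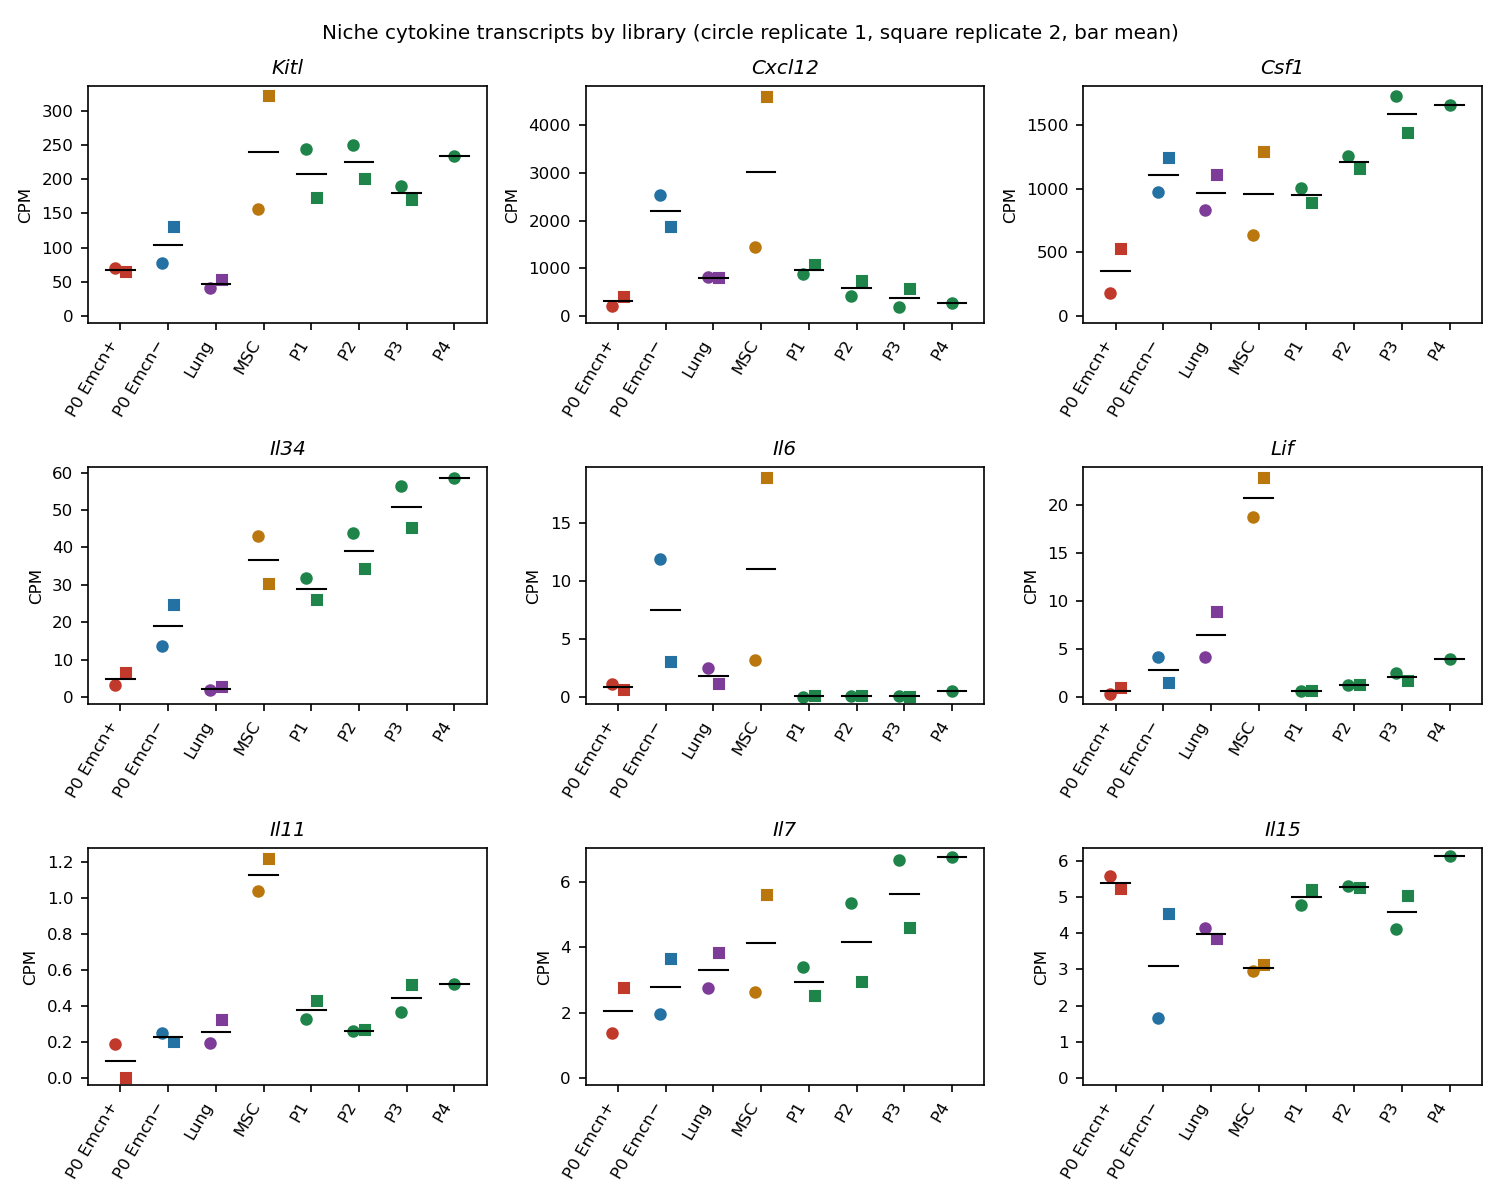
CPM (y axis, linear, 1 panel per gene) of the 9 niche cytokine genes in each library of the 8 conditions (x axis), with circles for replicate 1, squares for replicate 2 and bars for the mean. Cxcl12, Csf1, Il34, Il6 and Lif sit lower in both P0 Emcn+ libraries (red) than in both P0 Emcn- libraries (blue), Csf1 and Il34 lie higher and Cxcl12 lower at each passage from P1 to P3 of the same replicate number, and Lif and Il11 peak in MSC.

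Kitl was expressed in every condition, at a level that set the passaged cells and MSC apart from the 3 unpassaged EC-labelled populations. Lung cells had 41.3 and 53.0 CPM, P0 Emcn+ cells 70.6 and 64.9 CPM, and P0 Emcn- cells 77.5 and 130 CPM (replicates 1 and 2). MSC had 156 and 322 CPM, P1 cells 243 and 172 CPM, P2 cells 249 and 200.4 CPM, P3 cells 189.8 and 169.9 CPM, and the P4 library 233 CPM. All MSC and passaged libraries were thus above all P0 and lung libraries, while the MSC range took in those of P1, P2 and P3. A gene was called where the edgeR quasi-likelihood test gave a p below 0.05 after Benjamini-Hochberg adjustment over all tested genes, and where its log2 fold change exceeded 1.5 in size. By these limits Kitl was higher in MSC than in P0 Emcn+ cells (log2 fold change 1.87 ± 0.35 SE, adjusted p = 0.00152). Without MSC replicate 2 that value was 1.27 and under the fold change limit. Between P0 Emcn+ and P0 Emcn- cells it did not pass (-0.58 ± 0.34, adjusted p = 0.228), and within batches P0 Emcn- cells had 2.01-fold (batch a) and 1.10-fold (batch d) more. Against P0 Emcn- cells, MSC (1.29, adjusted p = 0.0162) and P1 (1.16, adjusted p = 0.0435) passed on p but not on the fold change. With the replicate block, a term for the batches within P0 and lung and within passaged cells and MSC, the MSC value was 1.505 (adjusted p = 0.0104) and was called, as it was without MSC replicate 1 (1.70) or P0 Emcn- replicate 2 (1.68).

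Stem cell factor comes in a membrane-bound and a soluble form, and the choice lies in a single exon of Kitl that encodes the cleavage site. It is shown because the counts, summed over the gene, do not separate the forms. The gene spans chr10:100015630-100100416 on the plus strand (GRCm38), and the exon, number 6 of the longer coding transcript, lies at chr10:100080857-100080940. It has 84 bases, or 28 codons, so that skipping it keeps the reading frame. In the line below the exon is in capitals, read 5′ to 3′, between 15 bases of the neighbouring exons of the spliced transcript on each side in lower case.
Kitl exon 6: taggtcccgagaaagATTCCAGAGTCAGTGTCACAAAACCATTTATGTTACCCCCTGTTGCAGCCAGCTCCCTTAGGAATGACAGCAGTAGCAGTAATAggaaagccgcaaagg

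Cxcl12 showed the widest range among the 3 abundant members, 23.7-fold between the highest and the lowest library. P0 Emcn+ cells had 217 and 407 CPM against 2541 and 1858 CPM in P0 Emcn- cells, with no overlap. It was 7.05-fold lower in P0 Emcn+ by the means (log2 fold change -2.79 ± 0.61 SE, edgeR adjusted p = 0.00556), with 4.57-fold in batch a and 11.7-fold in batch d. Without P0 Emcn+ replicate 1 the value was -2.39 at an adjusted p of 0.0544. MSC had 1453 and 4601 CPM, on either side of the P0 Emcn- range, and differed from P0 Emcn+ cells by 3.33 ± 0.63 (adjusted p = 0.00159). Lung cells lay between, at 814 and 800.2 CPM, and differed from neither P0 population by the test (adjusted p = 0.244 against P0 Emcn- and 0.0848 against P0 Emcn+). The MSC library with the higher Cxcl12 and Kitl levels, replicate 2, was also the one with the higher endothelial marker sum, 321 against 40.3 CPM. The MSC libraries also differed in the mesenchymal marker sum, 7981 CPM in the lower and 14633 CPM in the higher. The part of either sum in these levels was not tested.

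Csf1, the growth factor of macrophages, was the most abundant member per kb in most conditions, and P0 Emcn+ cells had the least of it. They had 183 and 528 CPM, below the lowest value of any other library, which was 637 CPM in MSC replicate 1. P0 Emcn- cells had 977 and 1246 CPM, lung cells 832 and 1106 CPM, and MSC replicate 2 had 1290.1 CPM. The difference of P0 Emcn+ from P0 Emcn- cells was -1.61 ± 0.45 (log2, edgeR adjusted p = 0.0193), 5.33-fold in batch d and 2.36-fold in batch a. It was close to the fold change limit: it was -1.02 without the first P0 Emcn+ library and -1.43 without the second P0 Emcn- library, and not called in either case. The call was also lost with the compared groups alone (-1.59, adjusted p = 0.104) and with shrunken fold changes (-1.31). Lung (1.48, adjusted p = 0.0260) and MSC (1.49, adjusted p = 0.0190) exceeded P0 Emcn+ cells on p alone. With the replicate block these values were 1.62 (adjusted p = 0.00912) and 1.75 (adjusted p = 0.00694) and both were called, as both were without P0 Emcn+ replicate 2 (2.41 each). For MSC, DESeq2 and RLE scaling gave values just above the limit as well.

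Il34, the second ligand of Csf1r, had much lower levels and another order. It was lowest in lung cells, at 1.77 and 2.63 CPM, followed by P0 Emcn+ cells at 3.17 and 6.38 CPM. P0 Emcn- cells had 13.6 and 24.5 CPM and MSC 43.1 and 30.1 CPM. None of these 4 groups overlapped with the next. Il34 was the member called in the comparison of lung with P0 Emcn- cells (-3.05 ± 0.42, edgeR adjusted p = 0.00383). It was 9.33-fold lower in batch a and 7.69-fold lower in batch d, and called when any 1 library was left out, although fitting those groups alone gave an adjusted p of 0.0647. P0 Emcn+ cells were 3.99-fold below P0 Emcn- cells (-1.96 ± 0.39, adjusted p = 0.00346), 3.84-fold in batch a and 4.29-fold in batch d, and -1.48 without P0 Emcn- replicate 2, just under the limit. Across the 15 libraries Il34 followed Kitl most closely of the abundant members (Pearson r = 0.909 for log2(CPM + 1)), a description over libraries that share batches and depth.

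Il6 and Lif, a pair of gp130 cytokines, were scarce throughout, with at most 22.8 CPM. For Il6, an inflammatory cytokine that also drives myeloid output, P0 Emcn- cells had 11.9 and 3.03 CPM and P0 Emcn+ cells 1.14 and 0.618 CPM. Lung cells had 2.49 and 1.15 CPM of it, and MSC 3.20 and 18.8 CPM. The replicates of P0 Emcn- and of MSC were several-fold apart. It was lower in P0 Emcn+ than in P0 Emcn- cells (-3.06 ± 0.96, edgeR adjusted p = 0.0317), and this call was lost when any of 3 libraries was left out: the first P0 Emcn+ library (-3.57), the second (-2.69) and the first P0 Emcn- library (-1.71). Within batches the ratio was 10.4-fold (batch d) and 4.89-fold (batch a). Higher Il6 in MSC than in P0 Emcn+ cells (3.67 ± 0.98, adjusted p = 0.0104) was lost without MSC replicate 2 (1.92) or P0 Emcn+ replicate 2 (3.27). Passaged Emcn- cells were nearly devoid of it. The P1 libraries had 0 and 3 counts, P2 had 4 and 3, P3 had 4 and 1, and P4 had 18 counts or 0.495 CPM. The mean of P0 Emcn- was 138 times that of P1, a size that rests on few counts at P1 and on P0 Emcn- replicate 1, which held 471 of the 501 counts of its group. The test gave a log2 fold change of -6.99 ± 1.30 (adjusted p = 0.00658). It was -5.66 and called without P0 Emcn- replicate 1, and -5.95 and not called without P1 replicate 1 (adjusted p = 0.0629). Without P1 replicate 2 the remaining P1 library was at 0 counts, and the fitted value of -10.7 is no measure of size.

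Lif, known for keeping mouse embryonic stem cells undifferentiated, was by far highest in MSC, with 18.7 and 22.8 CPM. Lung cells followed with 4.20 and 8.81 CPM, P0 Emcn- cells with 4.13 and 1.41 CPM, and P0 Emcn+ cells had 0.317 and 0.966 CPM. MSC exceeded P0 Emcn+ (5.09 ± 0.64, edgeR adjusted p = 0.000138) and P0 Emcn- cells (2.93 ± 0.57, adjusted p = 0.00363), and lung exceeded P0 Emcn+ cells (3.38 ± 0.61, adjusted p = 0.00172), and all of these calls held when any 1 library was left out. The lower level in P0 Emcn+ than in P0 Emcn- cells (-2.16 ± 0.60, adjusted p = 0.0185) was mostly that of batch d. There the ratio was 13.0-fold, against 1.46-fold in batch a, and the value was -1.11 without the first P0 Emcn- library and -1.54 without the first P0 Emcn+ library, not called in either case. With the compared groups alone the call was lost too (-2.11, adjusted p = 0.126).

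Il11, Il7 and Il15 were low in every condition, at no more than 6.76 CPM in any library. Il11, which acts on megakaryocyte and stromal cells, reached 1.04 and 1.22 CPM in MSC and at most 0.522 CPM elsewhere, with 6 and 0 counts in P0 Emcn+ and 10 and 2 in P0 Emcn-. The difference between the P0 populations was -1.15 ± 0.88 (adjusted p = 0.360), but Il11 was called lower (adjusted p = 0.0119) when the P0 Emcn+ library with 0 counts was the one kept. It was higher in MSC than in P0 Emcn+ cells (3.48 ± 0.79, edgeR adjusted p = 0.00458) and than in P0 Emcn- cells (2.33 ± 0.75, adjusted p = 0.0356), and the second call was lost when any 1 of its 4 libraries was left out and with the replicate block (adjusted p = 0.0587). Il7, the lymphoid growth factor, had 1.36 and 2.74 CPM in the Emcn+ and 1.96 and 3.63 CPM in the Emcn- cells of P0, which overlapped (-0.38 ± 0.52). Il15, which sustains natural killer cells, was the single member with a higher mean in P0 Emcn+ (5.58 and 5.22 CPM) than in P0 Emcn- cells (1.66 and 4.54 CPM). The difference was 0.89 ± 0.38 (adjusted p = 0.0958), and 1.73 (adjusted p = 0.00129) when P0 Emcn- replicate 2 was left out.

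Promoters are shown for Il6, Lif and Cxcl12, which differed between the P0 populations by the largest folds. Each line gives the 250 bases before the RefSeq start site (GRCm38.p6, plus strand), with matches to 3 motifs on either strand in capitals: the AP-1 site TGACTCA (or TGAGTCA), the GC box GGGCGG (or CCGCCC), and an NF-kB site written as GGG, any 2 bases, then TTTCC. Windows were found for 7 of the 10 genes. Of 32851 promoter windows of this length, 4.46% held the AP-1 letters, 32.7% the GC box and 1.41% the NF-kB letters.
Il6, chr5:30012864-30013113: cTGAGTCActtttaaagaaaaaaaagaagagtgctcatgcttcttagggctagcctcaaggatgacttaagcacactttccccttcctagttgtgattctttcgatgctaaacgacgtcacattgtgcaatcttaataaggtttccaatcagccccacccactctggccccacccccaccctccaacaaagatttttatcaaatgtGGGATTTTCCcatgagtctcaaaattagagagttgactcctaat
Lif, chr11:4257318-4257567: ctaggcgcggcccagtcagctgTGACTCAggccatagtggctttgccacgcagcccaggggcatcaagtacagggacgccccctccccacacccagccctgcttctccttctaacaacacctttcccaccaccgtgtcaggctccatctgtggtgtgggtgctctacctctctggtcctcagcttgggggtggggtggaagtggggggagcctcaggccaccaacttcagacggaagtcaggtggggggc
Cxcl12, chr6:117168285-117168534: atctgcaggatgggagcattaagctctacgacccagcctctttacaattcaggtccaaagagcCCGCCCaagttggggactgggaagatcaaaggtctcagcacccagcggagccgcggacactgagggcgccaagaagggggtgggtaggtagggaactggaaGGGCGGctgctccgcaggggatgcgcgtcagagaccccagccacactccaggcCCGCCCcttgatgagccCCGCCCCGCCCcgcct
The Il6 window held an AP-1 match from -249 to -243 and an NF-kB match, GGGATTTTCC, from -44 to -35, counted from the start site. An AP-1 match stood in the Lif window from -228 to -222. Cxcl12 had 5 GC boxes and neither of the other motifs. A match of letters is a description and not a measured binding site.

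Counted together, 5 of the 9 members were lower in P0 Emcn+ than in P0 Emcn- cells (Cxcl12, Csf1, Il34, Il6 and Lif) and 0 were higher, where 19.2% of all tested genes were called in either direction. The median log2 fold change of the 9 was -1.61, against -0.06 over all genes tested. By DESeq2 the same number was called, 5, and 4 with shrunken fold changes. Fitting the compared groups alone gave 3. In the 4 fits without 1 library, log2 fold changes ran from -3.29 to -2.39 for Cxcl12 and from -2.55 to -1.02 for Csf1. They ran from -2.52 to -1.48 for Il34, from -3.70 to -1.71 for Il6 and from -3.13 to -1.11 for Lif. All 5 thus kept their direction, but each lost its call in at least 1 of these fits. Without the second P0 Emcn- library, Il15 was higher in P0 Emcn+ cells by 1.73. Lung against P0 Emcn- had 1 member called, Il34, beside 3.83% of all genes, and lung against P0 Emcn+ had 1, Lif, beside 21.1%. MSC exceeded P0 Emcn+ cells in 6 members (Kitl, Cxcl12, Il34, Il6, Lif and Il11), beside 31.3% of all genes, and P0 Emcn- cells in 2 (Lif and Il11), beside 18.7%. Without MSC replicate 2 the first of these counts was 4. The shares of all genes take in both directions. P0 Emcn+ cells had 1512 genes higher and 2213 lower than P0 Emcn- cells. Lung had 414 higher and 329 lower than P0 Emcn-, and 2440 higher and 1646 lower than P0 Emcn+. MSC had 3898 higher and 2184 lower than P0 Emcn+, and 2184 higher and 1446 lower than P0 Emcn-. These comparisons share their libraries, so their values stand side by side and are not independent.

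**Figure D2:**
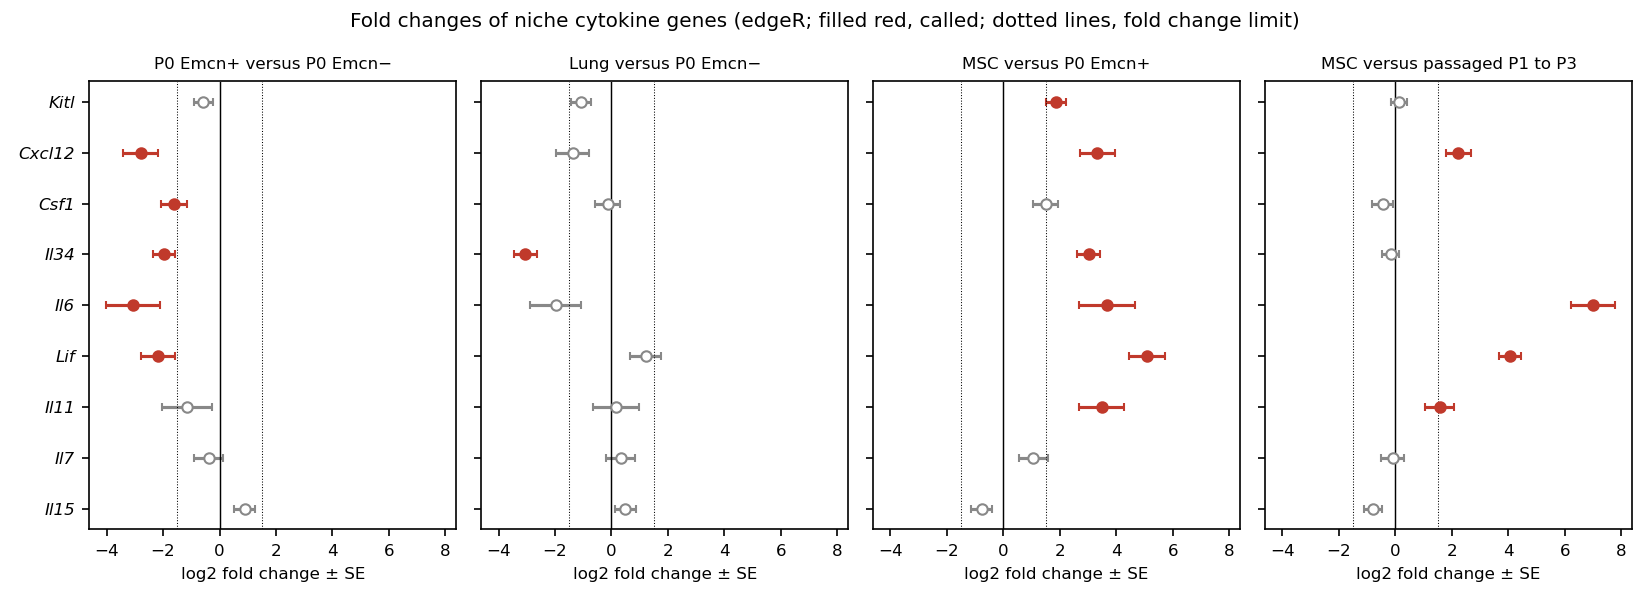
Log2 fold change ± SE (x axis) of each niche cytokine gene (y axis) in 4 comparisons, first group over second, by edgeR. Each condition had 2 libraries, and the passaged side of the last comparison is the mean of P1, P2 and P3. Filled red points are called and dotted lines mark the fold change limit of 1.5. In all, 5 points are red on the left in P0 Emcn+ versus P0 Emcn-, 1 on the left (Il34) in lung versus P0 Emcn-, 6 on the right in MSC versus P0 Emcn+ and 4 on the right in MSC versus passaged cells.

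The receptors moved in a split way between the sorted populations, where 19.2% of all tested genes were called in either direction. Of the 13 receptor genes tested, 4 were higher and 4 lower in P0 Emcn+ cells, and all 8 stayed called under each of 11 alternatives, those that left out 1 library included. The 4 that were higher were Kit, Cxcr4, Ackr3 (the scavenging receptor of Cxcl12) and Il2rg (the common chain for Il7 and Il15). Kit had 703 and 586 CPM in P0 Emcn+ against 23.3 and 1.82 CPM in P0 Emcn- cells (5.64 ± 1.03, edgeR adjusted p = 0.00197). Cxcr4 had 339 and 178 against 8.99 and 0.908 CPM (5.61 ± 1.15, adjusted p = 0.00376). Ackr3 had 168.6 and 110.1 against 36.3 and 37.3 CPM (1.96 ± 0.32, adjusted p = 0.000947), and Il2rg 144 and 258 against 5.72 and 2.52 CPM (5.57 ± 0.99, adjusted p = 0.0017). The cells labelled Emcn+ thus had higher receptor and lower ligand transcripts for Cxcl12 than P0 Emcn- cells.

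The 4 lower receptors all belong to the gp130 group, to which Il6, Lif and Il11 bind. Lifr had 19.4 and 31.1 CPM in P0 Emcn+ against 96.2 and 314 CPM in P0 Emcn- cells (-2.99 ± 0.56, edgeR adjusted p = 0.00227). The values for Il11ra1 were 28.5 and 30.0 against 123 and 330.3 CPM (-2.92 ± 0.49, adjusted p = 0.00125). Il6ra (-1.93 ± 0.25) and the shared chain Il6st (-1.93 ± 0.30) were lower too, and Il6st had 292 and 473 CPM in P0 Emcn+ against 1535 and 1435 CPM. Csf1r, the receptor of both Csf1 and Il34, had 19.96 and 25.04 CPM in Emcn+ and 9.16 and 12.4 CPM in Emcn- cells of P0, a difference that was not called (1.10 ± 0.41, adjusted p = 0.0618). Csf1r is also a macrophage gene, and macrophage and blood marker sums were higher in P0 Emcn+ libraries, as given above. Of those 8 markers, 3 were called higher in P0 Emcn+ cells and 5 were not called. They include Mrc1, which the study lists among sinusoidal and venous EC markers. Which cells the Csf1r transcripts came from was not tested. Il7r was near the limit of detection, with 13 and 2 counts in P0 Emcn+ and 14 and 0 in P0 Emcn-.

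**Figure D3:**
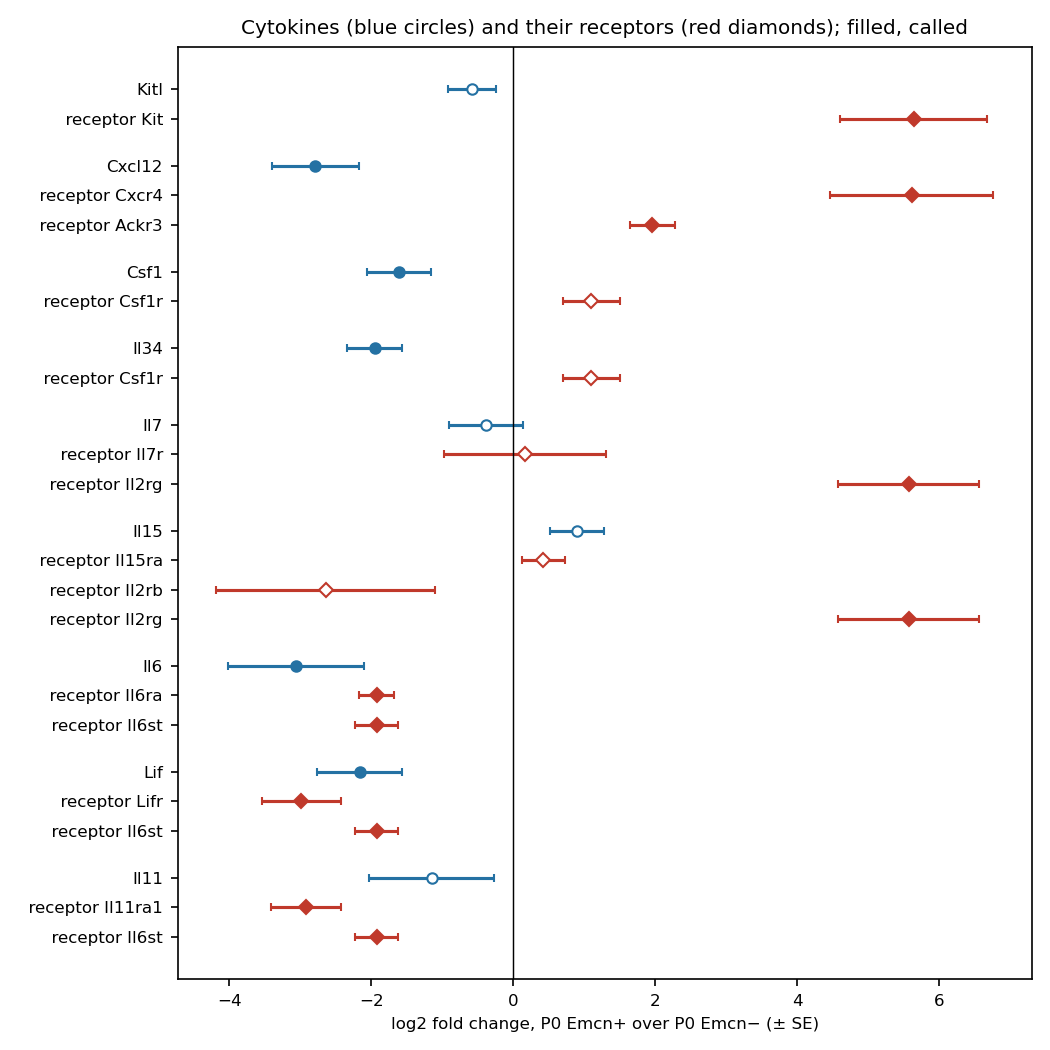
Log2 fold change ± SE of P0 Emcn+ over P0 Emcn- cells (x axis, edgeR, 2 libraries per group) for each niche cytokine (blue circles) and, listed under it, its receptor genes (red diamonds); filled symbols are called, and shared receptors appear more than once. Kit, Cxcr4 and Il2rg lie beyond 5 on the right, Cxcl12 lies near -2.79, and the ligands Il6 and Lif lie on the left together with Il6ra, Lifr, Il11ra1 and Il6st.

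Other genes of blood cell support were split as well. Beside the counts of this paragraph, 19.2% of all tested genes were called, 1512 higher and 2213 lower in P0 Emcn+ cells. Of 24 further cytokines and niche factors, 21 were tested, and 6 were higher and 6 lower in P0 Emcn+ cells. The higher ones were Csf2, Dll4, Dll1, Bmp4, Tgfb1 and Pdgfb, and the lower ones Thpo, Cxcl13, Angpt1, Il33, Ctf1 and Spp1. The study also names Dll4, Dll1, Tgfb1 and Pdgfb as blood-supporting genes higher in Emcn+ cells. In its cocultures without added stem cell factor, Emcn+ cells kept blood progenitors and Emcn- cells did not. By size of change the leading ones of the called genes were Thpo, Cxcl13, Csf2 and Dll4. Thpo, the megakaryocyte and stem cell factor thrombopoietin, had 15 and 19 counts in P0 Emcn- and 0 in both P0 Emcn+ libraries, at least 13.1-fold lower against 3 counts over the group. That call was lost with the compared groups alone (adjusted p = 0.0530). The B cell chemokine Cxcl13 averaged 56.4 CPM in Emcn- and 0.279 CPM in Emcn+ cells of P0 (-7.66 ± 0.86, edgeR adjusted p = 9.65e-05), and the Notch ligand Dll4 4.41 and 195 CPM (5.36 ± 1.25, adjusted p = 0.0076). Csf2 had 6 and 8 counts in P0 Emcn+, 0 in P0 Emcn- and at most 1 in any other group, so it passed the filter on low counts only through the group where it was high. Its call (adjusted p = 0.0494) was lost with the replicate block (0.0741), with no filter (0.0874) and without P0 Emcn- replicate 2 (0.0880), DESeq2 gave it no adjusted p, and it is not read as a difference, though it counts among the 6 above. Of 8 proteases that cut or release the members, Mmp2 (-3.68), Mmp9 (-3.87) and the cysteine protease Ctsk (-4.82) were lower and Plau (1.501) higher, the last at the limit and not called in 4 of the 11 alternatives.

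A list of 9 genes was taken for Cxcl12-abundant reticular stroma, the mesenchymal cells that are the main source of Cxcl12 in marrow. They were Lepr, Foxc1, Ebf1, Ebf2, Ebf3, Prrx1, Pdgfra, Pdgfrb and Adipoq. Of the 9, 8 were lower in P0 Emcn+ than in P0 Emcn- cells, 7 of them under each of the 11 alternatives. Of all tested genes 19.2% were called in either direction. The largest changes were in Pdgfra (-6.33), Ebf2 (-6.02), Pdgfrb (-5.92) and Prrx1 (-5.75), of which all but Ebf2 were also in the mesenchymal marker list. Ebf3 (-1.60) was the call that was not kept throughout, and the leptin receptor Lepr (0.13, adjusted p = 0.979) was the gene that was not called. These last genes are named after their values were seen. Against P0 Emcn+ cells, 6 of these 9 genes were higher in lung, beside 21.1% of all genes called in either direction, and 7 in MSC, beside 31.3%. Against P0 Emcn- cells, MSC had 1 higher (Foxc1) and 2 lower (Ebf2 and Pdgfra), beside 18.7%. The Foxc1 call was lost with the replicate block, and the calls of Ebf2 and Pdgfra with the compared groups alone. Against the mean of P1 to P3, MSC had 1 of the 9 higher and 2 lower, beside 14.2%, while Cxcl12 was called higher (2.23). Between P1 and P0 Emcn- cells 0 of the 9 were called, beside 8.84%, and Cxcl12 at -1.03 was not called either. The levels of Cxcl12 and of most of these genes thus differed in the same direction in the P0 comparison, but not in that of MSC with passaged cells. Which cells these transcripts came from was not tested.

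Passage of the Emcn- cells was followed in 2 parts, from P0 to P1 and from P1 on. Il6 and Lif were the 2 members called between P1 and P0 Emcn- cells, both lower at P1. Of all genes 8.84% were called in either direction, 1120 higher and 595 lower at P1. Lif had 0.625 and 0.574 CPM at P1 (-2.11 ± 0.60, edgeR adjusted p = 0.0382), and the call was lost without either P1 library or the first P0 Emcn- library (-1.07). The count of members was 0 without P1 replicate 1, and 4 without P0 Emcn- replicate 2, when Kitl (1.56) and Il15 (1.72) joined as higher. Macrophage and blood markers, 81.2 and 245 CPM in the P1 libraries, were at 12.1 CPM in P4.

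From P1 to P3 no member was called by edgeR (0 of 9, beside 0.222% of all genes), nor by DESeq2, although 3 had an unadjusted p under 0.05, as had 2634 of the 19401 genes tested. Both batches hold P1, P2 and P3, so 4 steps could be compared within batches. Csf1, Il7, Lif and Il34 had a higher level at each of the 4 steps, 4 of the 9 members, beside 12.6% of all tested genes. Csf1 went from 1009 to 1258 and 1732 CPM in batch b and from 891 to 1158 and 1441 CPM in batch c. Il34 went from 31.8 to 43.9 and 56.3 CPM and from 26.0 to 34.2 and 45.1 CPM. Its adjusted p for P3 against P1 was 0.355, with a log2 fold change of 0.85 ± 0.37.

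Lif went from the low level of P1 to 1.28 and 2.48 CPM in batch b and to 1.23 and 1.70 CPM in batch c, and reached 3.99 CPM at P4. Its change from P1 to P3 was 1.84 ± 0.59 (edgeR adjusted p = 0.219). Il7 went from 3.39 to 6.66 CPM in batch b and from 2.51 to 4.59 CPM in batch c between P1 and P3. Cxcl12 took the opposite course and was the 1 member lower at all 4 steps, beside 16.4% of all tested genes. It went from 878 to 427 and 194 CPM in batch b and from 1059 to 741 and 573 CPM in batch c, with -1.31 ± 0.58 for P3 against P1 (adjusted p = 0.362). The P4 library, 1 library without a replicate, had 265 CPM, above P3 of the same batch. Kitl, Il6, Il11 and Il15 did not move the same way at all 4 steps.

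**Figure D4:**
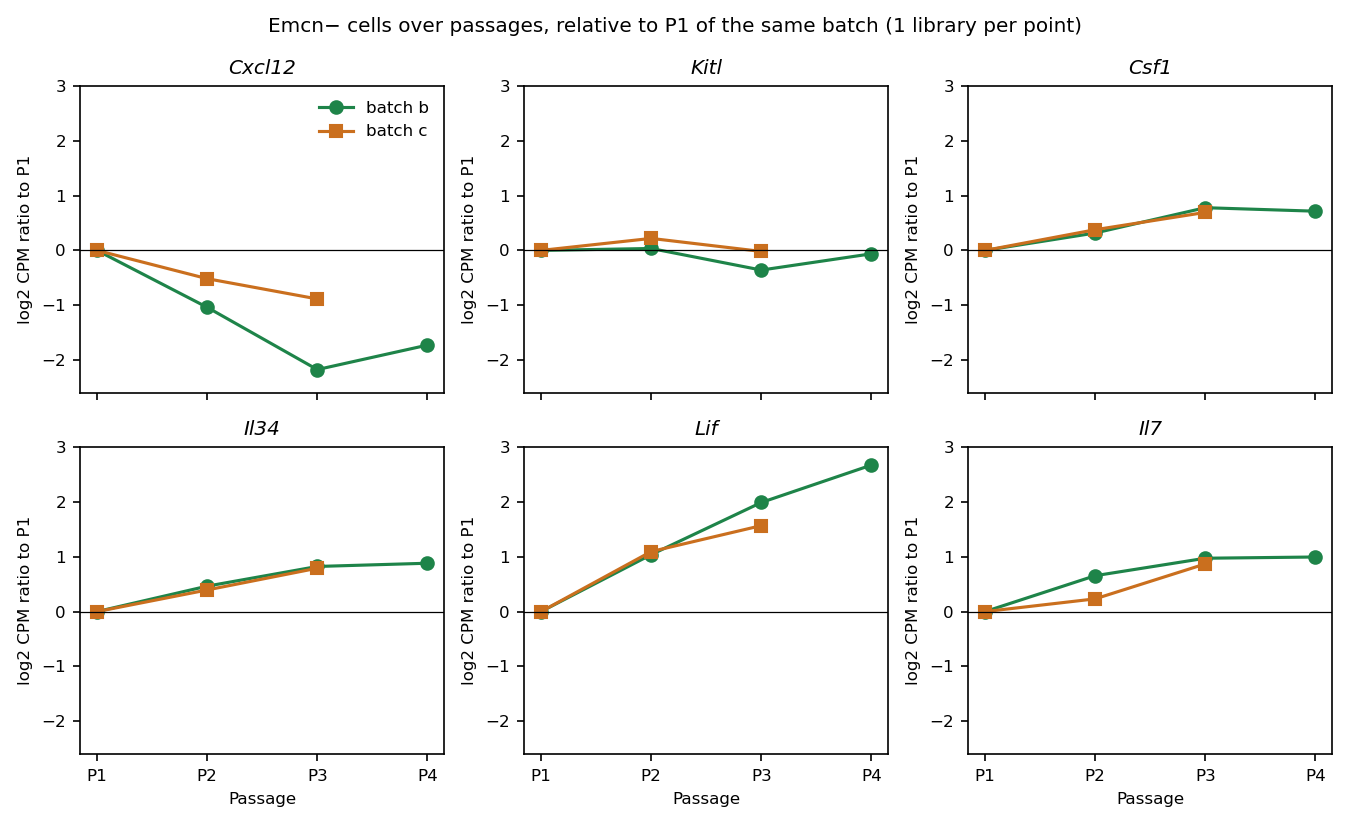
Log2 ratio of CPM to P1 of the same batch (y axis) at each passage of Emcn- cells (x axis) for 6 niche cytokine genes, with 1 library per point, circles for batch b and squares for batch c. Cxcl12 lies below 0 and Csf1, Il34, Lif and Il7 lie above 0 at P2 and P3 in both batches, while Kitl stays within 0.36 of its P1 level.

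MSC were also set against the mean of P1, P2 and P3, whose second replicates share batch c with MSC. The first replicates were in batch b, and the main fit had no batch term. That fit took the P1, P2 and P3 libraries as independent, although those of the same replicate number share a batch. Their deviations from the group means correlated (0.354 to 0.451), so the SE and p of this comparison may be too small. Medium and mouse line also differed, and neither can be told apart from cell type. Higher in MSC were 4 members (Cxcl12, Il6, Lif and Il11) and 0 were lower. Of all genes 14.2% were called in either direction, 1633 higher and 1128 lower in MSC. Cxcl12 differed by 2.23 ± 0.43 (edgeR adjusted p = 0.00332), and without MSC replicate 2 by 1.22 (adjusted p = 0.106). Il6 (7.00 ± 0.78, adjusted p = 0.000188) and Lif (4.05 ± 0.40, adjusted p = 9.88e-05) were called when any 1 library was left out, although the Il6 value then ran from 5.27 (without MSC replicate 2) to 8.26 (without P1 replicate 2), and within batch c Lif was 17.8-fold higher in MSC. Il11 (1.57 ± 0.51, adjusted p = 0.0397) was not called with the replicate block (1.44, adjusted p = 0.0990), nor when any 1 library was left out. Kitl (0.13 ± 0.27), Csf1 (-0.45 ± 0.37), Il7 (-0.10 ± 0.41) and Il34 (-0.17 ± 0.30) did not pass, nor did Il15 (-0.79 ± 0.31, adjusted p = 0.0786). Of the receptors, Kit and Cxcr4 were higher and Il6ra lower in MSC than in the passaged cells. The Cxcr4 call was lost without MSC replicate 2 (1.87, adjusted p = 0.156), the MSC library with the higher endothelial marker sum, and Cxcr4 had 1.85 and 23.0 CPM in the MSC libraries. Kit had 10.1 and 47.0 CPM in MSC and at most 0.287 CPM at P1 to P4.

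For the members with a mean of at least 5 CPM, the genes with the most similar pattern over the 15 libraries were picked from 11399 genes by Pearson correlation of log2(CPM + 1). Kitl was most like Cdkl3 (0.948), Jrkl (0.931) and Gm10925 (0.928). For Cxcl12 these were Fndc4 (0.910), Macroh2a2 (0.909) and the Hedgehog signal transducer Smo (0.892). Csf1 was most like Prg4 (0.923), the joint lubricant lubricin, Wdr66 (0.920) and Steap2 (0.917), and Il34 like Gsdme (0.944), Cdkl3 (0.925) and S100b (0.915). The 15 libraries share conditions, batches and depth, so these values describe likeness of pattern in this set of samples.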

How the data were processed

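Per the study's methods, the authors ran an nf-core pipeline in which STAR aligned trimmed reads (GRCm38) and Salmon estimated transcript abundance, and tximport gave gene-level values. The deposited table holds whole-number counts without normalization; the rounding is not described in the sources used here. These gene-level counts do not separate transcript forms, and reads of overlapping genes may be split between them. Groups, replicate numbers and batches came from the labels. That lung cells were Emcn-, the mouse lines and the media came from the study's methods.

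CPM was computed on the total count per library, 9914620 to 39718807. A count of 0 allows up to 3 counts, or 0.0755 to 0.303 CPM. Differential expression used edgeR 4.0.16 in R 4.3.3 (TMM factors, filterByExpr with minimum count 10 and minimum total 15, quasi-likelihood test, all 15 libraries, 1 coefficient per condition, 7 residual degrees of freedom), adjusted over 19401 genes. The script was tested on simulated data. Alternatives were DESeq2 1.42.0, with and without ashr 2.2.63 shrinkage, RLE factors, other filters, the compared groups alone, no fold change limit, leaving out each library, and a replicate block. Same-numbered libraries share a batch by the labels within P0 and lung (correlation of deviations from the group means 0.139 to 0.209) and within P1 to P3 (0.354 to 0.451). In each replicated condition the libraries differed by more than counting noise. With 2 libraries per group, p-values rest on a spread shared between conditions. The SE of an edgeR log2 fold change was back-calculated, as its absolute value divided by the square root of the quasi-likelihood F statistic.

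The members, gene lists and tests were chosen with earlier results of these data known. Named genes are the members, their receptors, the list genes with the largest changes (up to 4 a list) and the 3 genes most like each abundant member. The other cytokines and niche factors called between the P0 populations were named after their values were seen. Results of the list genes under the alternatives, and the median transcript length, were added after seeing the data. Transcript lengths and positions came from GENCODE M21 on GRCm38, promoters from RefSeq.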

Additional observations from a re-analysis of the deposited data

How the results depend on the processing

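The number of members called under the alternatives was as follows, and the alternatives not named here kept it within 1.5 times. For P0 Emcn+ against P0 Emcn- (5), it was 3 with the compared groups alone and 2 to 4 without 1 library. For lung against P0 Emcn- (1), it was 0 with the compared groups alone and 1 to 1 without 1 library. For lung against P0 Emcn+ (1), it was 2 without the fold change limit, 2 with the replicate block and 1 to 3 without 1 library, with 3 without P0 Emcn+ replicate 1. For MSC against P0 Emcn- (2), it was 1 with at least 50 counts in 2 libraries, a filter that removed Il11, and 1 to 2 without 1 library. For MSC against P0 Emcn+ (6), leaving out 1 library gave 4 to 7. For P1 against P0 Emcn- (2), it was 1 with shrunken fold changes, 1 with the compared groups alone and 0 to 4 without 1 library. For MSC against P1 to P3 (4), leaving out 1 library gave 2 to 3, and for P3 against P1 each alternative gave 0. The cause of these moves was not tested, except where fewer samples or genes entered the fit by construction.

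Of 816 alternative values of single members, 734 kept direction and call, 55 gained or lost a call and 27 changed sign, none of them called. Over the fits without 1 library, the sign-changing log2 fold changes ranged as follows. In P0 Emcn+ against P0 Emcn-, Il7 ran from -0.95 to 0.090. In lung against P0 Emcn-, Csf1 ran from -0.33 to 0.038, Il7 from -0.074 to 0.79, Il11 from -0.20 to 0.49 and Il15 from -0.11 to 1.31. In MSC against P0 Emcn-, Cxcl12 ran from -0.49 to 1.13, Csf1 from -0.69 to 0.28, Il6 from -1.13 to 1.93 and Il15 from -0.49 to 0.93. In P1 against P0 Emcn-, Csf1 ran from -0.23 to 0.093 and Il7 from -0.14 to 0.72. In P3 against P1, Kitl ran from -0.42 to 0.12, Il6 from -0.39 to 4.42 and Il15 from -0.21 to 0.014. In MSC against P1 to P3, Kitl ran from -0.45 to 0.54, Il7 from -0.71 to 0.32 and Il34 from -0.48 to 0.092, and with the replicate block Il7 was 0.26 and Il34 0.032. The replicate block changed the calls of Csf1, Kitl and Il11 given with the results and no other member call.

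Over all genes, P3 against P1 had 43 calls, but 303 by DESeq2, 150 with shrunken fold changes, 170 without a filter, 106 with the replicate block, 153 with the compared groups alone and 0 to 41 without 1 library. Lung against P0 Emcn- had 743, but 145 with the compared groups alone and 406 to 675 without 1 library. P1 against P0 Emcn- had 1715, but 968 with the compared groups alone and 805 to 2196 without 1 library. Without the fold change limit the counts were 6609 for P0 Emcn+ against P0 Emcn- (3725 with it), 7209 for lung against P0 Emcn+ (4086), 6853 for MSC against P0 Emcn- (3630), 9996 for MSC against P0 Emcn+ (6082), 3387 for P1 against P0 Emcn- and 6206 for MSC against P1 to P3 (2761). With 2 libraries per group, a member that missed the threshold is not shown to be equal between groups, and Il11 in P0 cells and Il6 in passaged cells lay near the limit that a count of 0 allows.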
